A study of Mus musculus with 10 samples.

Results

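The 2 hemispheres of the mouse brain were compared after a stroke model in which the middle cerebral artery was occluded for 60 min (MCAo) and then reopened, with 48 h of reperfusion before the tissue was taken. The comparison used 4 of the 10 Illumina Mouse-6 bead arrays of the study, chosen by their labels. For each of 2 genotypes they hold 1 ipsilateral array, from the injured hemisphere, and 1 contralateral array, from the opposite hemisphere. The genotypes were CD93 knockout (KO) and wild type (WT), on strain C57/Bl6, at an age of 10 weeks. The labelled tissue was brain. The ipsilateral minus contralateral difference in log2 intensity was taken within each genotype, which gave a KO pair and a WT pair. It was described across 9351 named genes, of which 9329 stood above background on at least 1 of the 4 arrays. Every group held 1 array, so no group had a replicate. The labels do not say how many mice gave the RNA of an array or whether the hemispheres of a pair are from the same animals, and the knockout is described by its gene alone.

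Occlusion and reopening of the middle cerebral artery injure mainly the striatum and the overlying cortex. In the days that follow, microglia and astrocytes change their state, vessels are activated and leukocytes can enter from the blood, while neurons in the territory of the artery die or reduce their transcription. In whole tissue, fewer cells of a type and less RNA per cell cannot be told apart, and this holds for every difference given here.

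Cd93, the targeted gene, encodes a transmembrane lectin-like receptor of endothelium and myeloid cells and was above background on 3 of the 4 arrays. Its log2 signal was 5.39 on the contralateral and 6.23 on the ipsilateral KO array, and 6.38 and 8.66 on the WT arrays. The KO level lay below the WT level in each hemisphere, and the ipsilateral level was the higher of each pair, by 0.84 in KO and 2.28 in WT. The mean of the pairs, 1.56 ± 0.28 (SE), passed the test (limma adjusted p = 0.00454), but not without the WT contralateral array (adjusted p = 0.051). Whether the probe lies in the deleted sequence is not given, so the signal is no full check of the genotype.

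Of 46373 probes, 16310 (KO) and 15734 (WT) stood above background on the ipsilateral arrays, at a detection p under 0.01, and 13971 and 13887 on the contralateral arrays. Before normalization, the 75th percentile of raw intensity was 137.1 and 126.4 on the ipsilateral arrays, against 104.5 and 96.8 on the contralateral arrays. Quantile normalization, which gives all arrays the same distribution, removed this gap, and the median difference of all genes was -0.02 afterwards. With median centring in its place that median was 0.43. Differences below are therefore relative to the bulk of genes on the same array. The number of arrays limits the precision of every value.

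Large differences were mostly rises in the injured hemisphere. Signal was at least 2-fold higher in both pairs for 255 genes (2.73% of those tested) and at least 2-fold lower in both for 9 (0.0962%). All 255 and all 9 also passed limma, which adds little, since limma tests the mean of the same pairs. A limma model over all 10 arrays, with 5 conditions and genotype, called 1185 genes higher (12.7%) and 754 lower (8.06%) after Benjamini-Hochberg adjustment at 0.05. Its residuals are differences between the genotypes across conditions, so a p-value here speaks of steadiness between genotypes and not of a spread between replicates.

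The calls of higher genes were the steadier ones. When each of the 4 arrays was left out in turn, 236 of the 255 genes at least 2-fold higher passed limma every time, and so did 7 of the 9 at least 2-fold lower. Of all genes called higher 420 did so (35.4%), and of all called lower 49 (6.5%). The 255 and the 9 were chosen by large differences on these same arrays, so their passing again was favoured in advance. The total of 1939 calls was 585 without the KO ipsilateral, 1016 without the KO contralateral, 753 without the WT ipsilateral and 748 without the WT contralateral array. Counts of calls with 1 array left out follow this order throughout. The balance of directions moved with the scaling and with the filter. Higher genes made up 61.1% of the calls with quantile normalization, 99.1% (4880 of 4923) with median centring, 70.5% (893 of 1267) in the values normalized by the authors, and 50.4% of 1604 calls where detection on all 10 arrays was required.

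The pairs resembled each other across genes, which are not independent replicates. The difference had the same sign in both pairs for 7459 genes (79.8%). The interquartile range of all differences ran from -0.24 to 0.23 in the KO pair and from -0.22 to 0.25 in the WT pair. In the KO pair alone 63 genes were at least 2-fold higher, and in the WT pair alone 95.

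**Figure D1:**
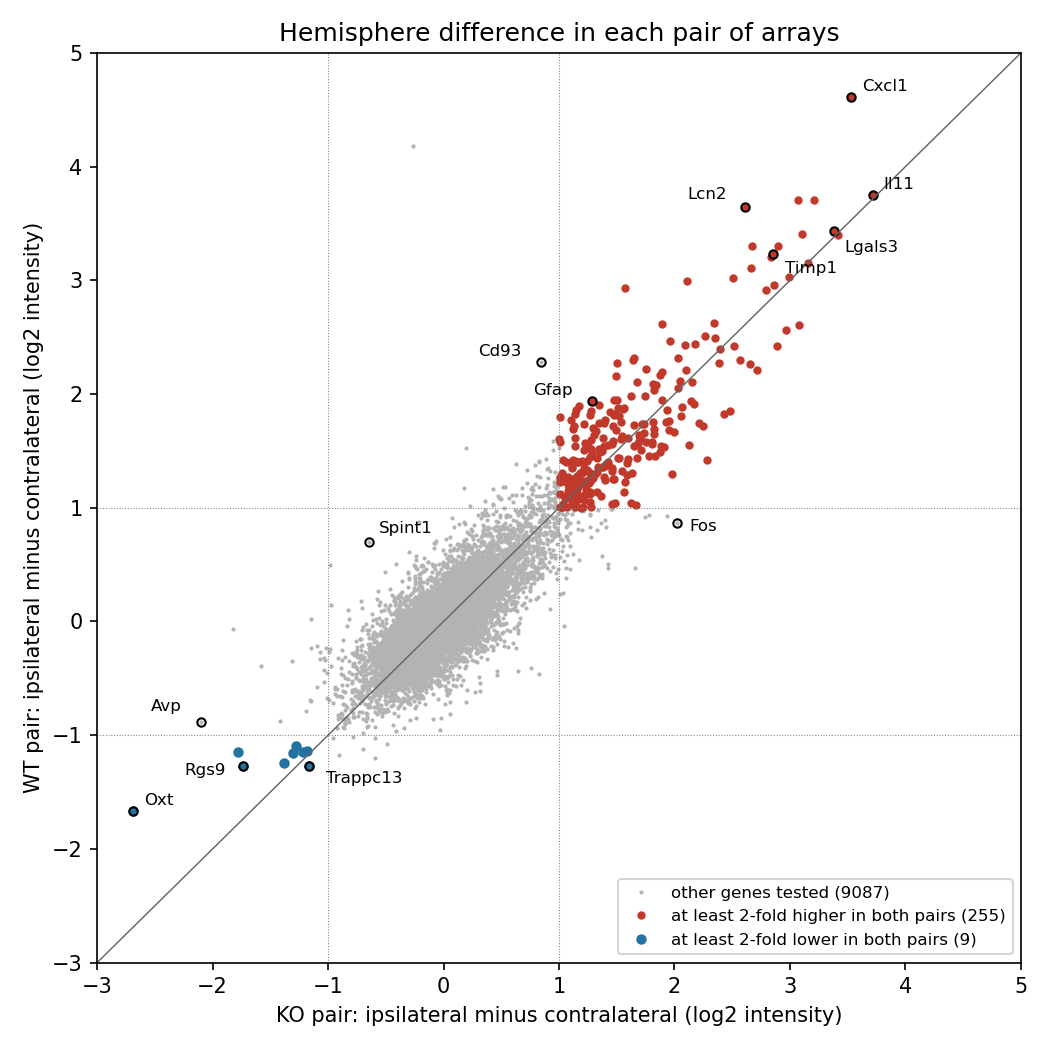
Ipsilateral minus contralateral log2 intensity of each of the 9351 genes in the KO pair (horizontal axis) and the WT pair (vertical axis). The coloured genes are at least 2-fold higher (255) or at least 2-fold lower (9) in both pairs, and higher genes reach much farther from 0 than lower ones.

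Genes above background on all 4 arrays are given first, from the largest rises. They were ranked by the difference of the weaker pair, which favours levels that do not overlap. Lgals3, which encodes the carbohydrate-binding protein galectin-3, went from 7.54 to 10.92 in KO and from 6.96 to 10.39 in WT. Its ipsilateral and contralateral levels did not overlap, and the pairs differed by less than the SE (mean 3.41 ± 0.21, limma adjusted p = 3.01e-05). Ms4a6d, a membrane protein gene of myeloid cells, went from 7.05 to 10.25 in KO and from 6.33 to 10.03 in WT (adjusted p = 3.01e-05). Tgfbi, whose product is secreted into the matrix, rose by 3.11 in KO and 3.41 in WT, and Emp1, an epithelial membrane protein gene, by 2.99 and 3.03.

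Timp1, an inhibitor of matrix metalloproteinases, rose from 6.98 to 9.83 in KO and from 6.48 to 9.71 in WT. Plin2, a coat protein of lipid droplets, rose by 2.79 in KO and 2.91 in WT, and Lyz2, the lysozyme of macrophages and neutrophils, by 2.67 and 3.11, although a probe may not separate it from the close copy Lyz1. Lcn2, which binds iron-carrying siderophores, had unequal pairs. Its ipsilateral levels were close (10.97 in KO and 10.59 in WT) while its contralateral levels were 8.36 and 6.94, so that it rose by 2.61 in KO and 3.64 in WT. Klk6, a serine protease gene of oligodendrocytes, rose by 2.51 and 3.02, and Ccl4, a chemokine gene, by 2.89 and 2.42. The other 2 of the 12 largest rises were Bcl2a1b, an anti-apoptotic gene with near-identical copies that a probe may not separate (2.39 and 2.40), and Tuba1c, an alpha-tubulin gene (2.35 and 2.50). All 12 calls held without any 1 of the 4 arrays, which the ranking by difference favours.

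**Figure D2:**
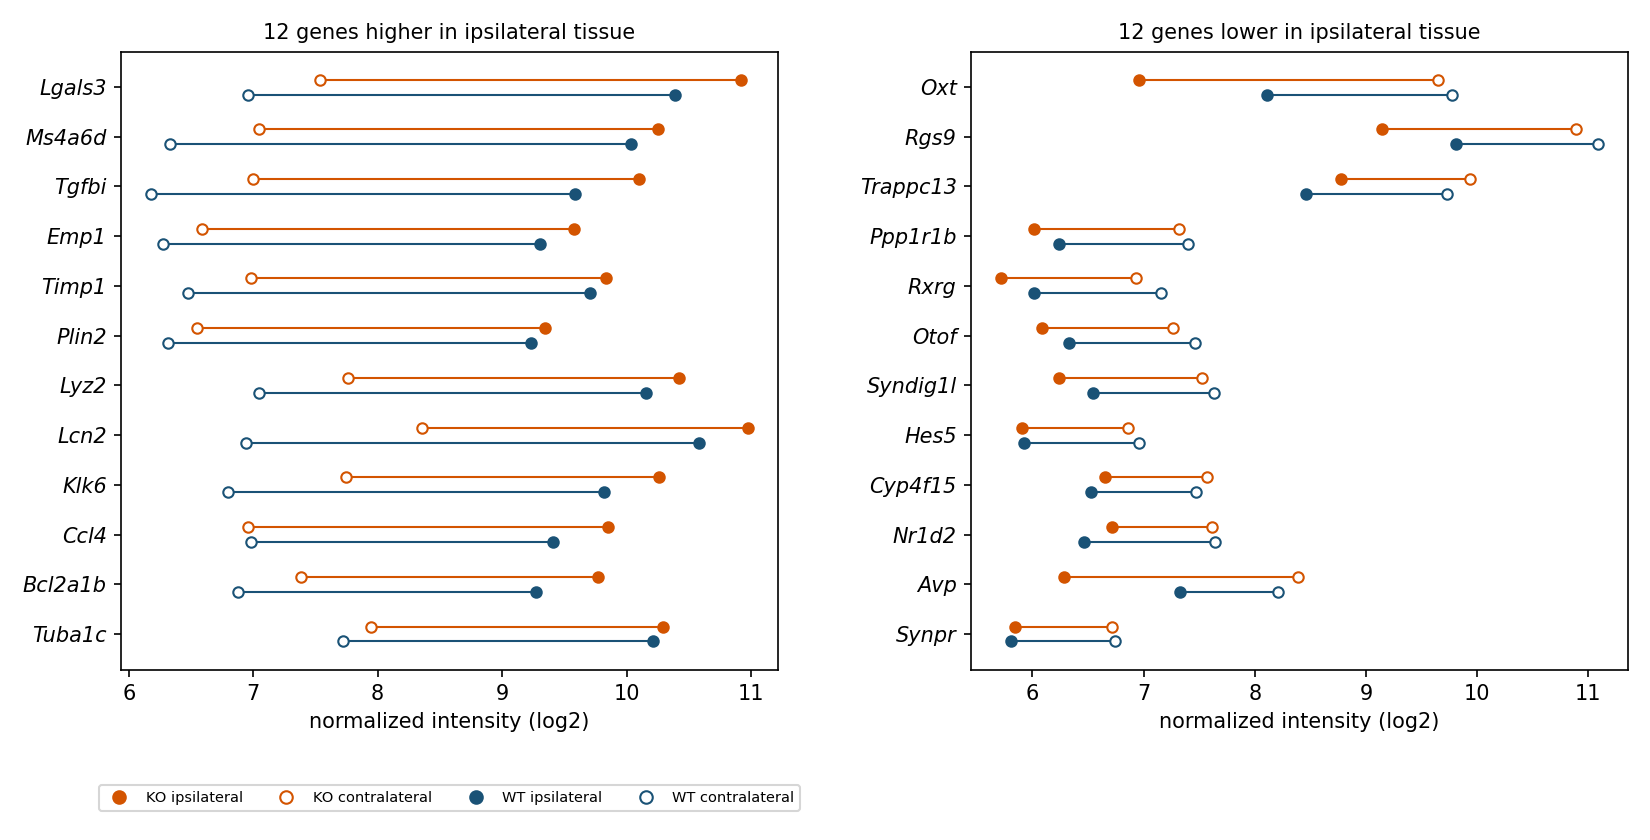
Normalized log2 intensity on each of the 4 arrays of the 12 genes with the largest rise and the 12 with the largest fall among called genes detected on all 4 arrays, ranked by the weaker pair. Every gene has both ipsilateral points on the same side of both contralateral points, and the rises are longer than the falls. The genes were chosen by these differences, which favours the separation of the sides.

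The 12 largest falls included the striatal marker genes Rgs9, Ppp1r1b and Syndig1l and the hypothalamic peptide genes Oxt and Avp. Rgs9, a regulator of G-protein signalling in striatal neurons, went from 10.88 to 9.15 in KO and from 11.08 to 9.81 in WT (mean -1.51 ± 0.17, limma adjusted p = 0.000341). Ppp1r1b, which encodes the dopamine-regulated phosphatase inhibitor DARPP-32, went from 7.32 to 6.01 in KO and from 7.40 to 6.24 in WT (adjusted p = 0.000236). The ipsilateral and contralateral levels of both genes did not overlap, which the ranking by difference favours. At least 2-fold lower in both pairs were also Trappc13, a subunit of a vesicle-tethering complex (-1.16 in KO and -1.27 in WT), Rxrg, a retinoid X receptor gene (-1.21 and -1.14), Otof, a calcium sensor of vesicle fusion (-1.18 and -1.14), and Syndig1l, a membrane protein gene (-1.28 and -1.09). Hes5, a Notch target gene, fell by 0.96 and 1.03, Cyp4f15, a cytochrome P450 gene, by 0.92 and 0.94, and Synpr, of the vesicle protein synaptoporin, by 0.87 and 0.93. The calls of these 9 genes held without any 1 of the 4 arrays, which the same ranking favours.

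Other large falls were less steady. Oxt, the gene of the hypothalamic hormone oxytocin, went from 9.65 to 6.96 in KO and from 9.77 to 8.11 in WT, the largest mean fall (-2.18 ± 0.51, limma adjusted p = 0.017), and its call was lost without the KO ipsilateral, the KO contralateral or the WT contralateral array (adjusted p = 0.157, 0.0875 and 0.0636). Avp, the gene of vasopressin, made by the same hypothalamic nuclei, went from 8.39 to 6.29 in KO and from 8.21 to 7.33 in WT (adjusted p = 0.0403), and its call was lost without the KO ipsilateral, the KO contralateral or the WT contralateral array (adjusted p = 0.308, 0.176 and 0.0996). Nr1d2, a repressor of the circadian clock, fell by 0.90 and 1.18 (adjusted p = 0.0138), and its call was lost without the KO ipsilateral or the WT contralateral array (adjusted p = 0.139 and 0.123).

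Some genes stood above background on 1 side alone. On both ipsilateral and neither contralateral array this held for 611 genes, of which 289 passed as higher and 0 as lower, against 12 genes with the reverse pattern, all called lower, while 8097 were above background on all 4. Genes were tested if above background on 2 of the 10 arrays, so a dim gene could enter through the ipsilateral arrays where it was high. A gene of this kind has a lower bound in place of a fold, given for the KO pair and then the WT pair. It sets the array with signal against the lowest detected level of the other array or the level of the probe itself there, whichever was higher. Cxcl1, a chemokine that attracts neutrophils, was at 5.55 and 5.25 on the KO and WT contralateral arrays and at 9.08 and 9.86 on the ipsilateral arrays. It was at least 11.6-fold and 24.4-fold higher (limma adjusted p = 0.000206). Il11, a cytokine of the interleukin-6 family, was at least 12.5-fold and 8.61-fold higher (adjusted p = 3.01e-05), Tubb6, a beta-tubulin gene, at least 10.7-fold and 9.93-fold, and Cd72, a receptor of B cells and myeloid cells, at least 8.94-fold and 8.91-fold.

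Next in order of the mean bound were Hmox1, the haem-degrading enzyme haem oxygenase (at least 7.16-fold and 9.24-fold), Ccl7, a chemokine for monocytes (at least 8.42-fold and 5.98-fold), Selp, the adhesion molecule P-selectin (at least 6.74-fold and 6.08-fold), and Igfbp3, a binding protein of insulin-like growth factors (at least 6.29-fold and 4.81-fold). All 8 calls held without any 1 of the 4 arrays, which the choice by the largest bounds favours. On the reverse side the bounds were smaller. Gpr6, a receptor of striatal neurons, was at least 2.22-fold and 2.36-fold lower, and its call was lost without the KO ipsilateral array (adjusted p = 0.0532). Kpna4, a nuclear import factor (at least 1.72-fold and 1.79-fold lower), and Setbp1, a nuclear protein gene (at least 1.71-fold and 1.71-fold lower), kept their calls. Clcn1, a chloride channel gene, was at least 1.72-fold and 1.65-fold lower, and its call was lost without the KO ipsilateral or the WT contralateral array (adjusted p = 0.175 and 0.129). H2-Ob, an MHC class II gene, was at least 1.59-fold and 1.75-fold lower, and its call was lost without the KO ipsilateral, the WT ipsilateral or the WT contralateral array (adjusted p = 0.124, 0.0584 and 0.119). Pramel11 was at least 1.57-fold and 1.65-fold lower, and its call was lost without the KO ipsilateral, the WT ipsilateral or the WT contralateral array (adjusted p = 0.215, 0.0518 and 0.19).

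The start regions of 3 leading genes are shown for the motifs of injury-related factors that they hold. They are RefSeq windows of GRCm38.p6, from 250 bases before to 50 after the start of the gene, 5′ to 3′ on its strand. The letters searched, on both strands, were TGANTCA (AP-1), GGGNNNTTCC (NF-kB), TTCNNNGAA (STAT factors) and GAGGAA (the PU.1 core), and capitals mark matches. Cxcl1 (chr5:90890995-90891294, plus strand) held 3 NF-kB matches, with first bases at -89, -71 and -70 from the start, and the last 2 overlap. Cd72 (chr4:43454577-43454876, minus strand) and Lcn2 (chr2:32387690-32387989, minus strand) held 1 match each to the PU.1 core, at -47 and -20.
Cxcl1: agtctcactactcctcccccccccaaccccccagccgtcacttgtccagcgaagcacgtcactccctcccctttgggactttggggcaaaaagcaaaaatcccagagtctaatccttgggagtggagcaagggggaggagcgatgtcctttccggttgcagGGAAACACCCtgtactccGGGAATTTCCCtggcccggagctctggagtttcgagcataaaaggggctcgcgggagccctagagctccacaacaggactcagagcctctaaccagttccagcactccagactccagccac
Cd72: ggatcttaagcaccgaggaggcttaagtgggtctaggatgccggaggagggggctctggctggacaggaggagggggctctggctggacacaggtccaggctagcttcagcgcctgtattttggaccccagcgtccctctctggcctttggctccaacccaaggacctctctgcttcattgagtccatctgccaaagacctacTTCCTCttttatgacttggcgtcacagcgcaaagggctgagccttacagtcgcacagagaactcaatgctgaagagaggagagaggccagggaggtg
Lcn2: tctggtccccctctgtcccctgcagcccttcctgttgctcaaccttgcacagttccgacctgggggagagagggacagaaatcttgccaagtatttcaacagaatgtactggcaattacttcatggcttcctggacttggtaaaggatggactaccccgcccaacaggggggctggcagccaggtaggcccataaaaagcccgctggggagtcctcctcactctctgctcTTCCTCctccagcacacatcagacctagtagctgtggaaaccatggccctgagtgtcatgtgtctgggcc
The windows of Il11, Lgals3 and Tgfbi held no match to the 4 motifs.

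The AP-1 letters stood in 12.6% of the windows of genes at least 2-fold higher in both pairs (26 of 207 with a window), against 4.79% of those of all genes tested and 7.93% of all windows listed. The shares in the same order were 39.1%, 26.2% and 28.3% for the PU.1 core. They were 12.1%, 6.61% and 8.47% for the STAT letters and 8.7%, 5.63% and 5.52% for the NF-kB letters. Of 602 genes called lower with a window, 5.32% held the AP-1 letters, 24.9% the PU.1 core, 6.48% the STAT letters and 5.48% the NF-kB letters. These shares are a description with no test, and a match does not show that a factor binds.

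Chemokines, which draw leukocytes, were among the genes with the largest rises. Of 17 tested, 10 rose and 1 fell, with a median difference of 1.37 in the KO pair and 0.57 in the WT pair, against -0.02 for all genes in each, of which 12.7% rose and 8.06% fell. Of the 6 above background on all 4 arrays 1 rose and 1 fell (median -0.03). Without each array in turn 8, 7, 8 and 9 rises and 0, 0, 0 and 0 falls were called. Ccl12, a ligand of the monocyte receptor Ccr2, was above background on 3 of 4 arrays and went from 6.68 to 9.58 in KO and from 5.36 to 8.66 in WT (mean 3.10 ± 0.31, limma adjusted p = 0.000151). With Cxcl1, Ccl7 and Ccl4 it leads the list. Cx3cl1, the neuronal ligand of the microglial receptor Cx3cr1, fell by 0.34 and 0.54, and its call was lost without any 1 array (adjusted p from 0.0504 to 0.216). Of 11 genes of the interleukin-6 family, which signals through STAT factors, 4 rose (median 0.35). Besides Il11 these were Socs3, a feedback inhibitor (2.34 and 2.62), Osmr, the receptor of oncostatin M (1.69 and 1.64), and Il6st, the shared receptor subunit (0.66 and 0.80), whose call was lost without the KO ipsilateral or the WT contralateral array (adjusted p = 0.15 and 0.132).

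Of 10 genes of the interleukin-1 and TNF families, which start inflammation, 7 rose (median 0.72). Of the 6 above background on all 4 arrays 4 rose (median 1.11). Il33, an alarm cytokine of glia, went from 9.06 to 10.88 in KO and from 8.69 to 10.34 in WT. Tnfrsf12a, the receptor of TWEAK, rose by 1.68 and 1.57, and Tnfrsf1a, a receptor of TNF, by 1.65 and 1.54. Il1b, of interleukin-1 beta, was above background on the ipsilateral arrays alone, at 6.43 in KO and 5.6 in WT, and was at least 2.63-fold and 1.38-fold higher (limma adjusted p = 0.00111). Il6 and Tnf themselves were below background on all 10 arrays, so no difference was measured for them.

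Receptors for tissue debris and antibody were mostly higher. Of 12 Toll-like receptor and adaptor genes 7 rose (median 0.63), and 5, 5, 4 and 6 were called without each array in turn. Of the 4 above background on all 4 arrays 2 rose (median 1.02). Cd14, a co-receptor of these receptors, went from 5.93 to 8.41 in KO and from 6.03 to 7.88 in WT, and Tlr2 rose by 1.88 and 1.55. Tlr13, a receptor for RNA, was at least 3.53-fold and 3.23-fold higher, and Tlr7, of the same kind, at least 2.03-fold and 2.62-fold. Of 12 Fc and phagocytic receptors 9 rose (median 1.31), among them the antibody receptors Fcgr4 (2.11 and 3.0) and Fcgr2b (1.81 and 2.09), each above background on 3 of 4 arrays, and Fcer1g, their signalling chain (1.40 and 1.78). Of the 6 above background on all 4 arrays 3 rose (median 0.66). Pilra, an inhibitory receptor of myeloid cells, was at least 3.1-fold and 2.18-fold higher.

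Complement tags debris and synapses for removal. Of 8 complement genes 4 rose and 1 fell (median 0.54). The genes of all 3 chains of C1q, which starts the classical pathway, rose: C1qc by 1.11 and 1.41, C1qb by 0.95 and 1.51 and C1qa by 0.77 and 1.18 in KO and WT (limma adjusted p = 0.000116, 0.000536 and 0.00274). Each difference was larger in the WT pair than in the KO pair, but the gap between pairs passed limma for no gene tested. Serping1, the inhibitor of C1, rose by 0.43 and 1.16, and its call was lost without the WT ipsilateral or the WT contralateral array (adjusted p = 0.116 and 0.114). C2, a protease of the pathway, fell by 0.61 and 0.26, a direction that turned with median centring, and its call was lost without any 1 array (adjusted p from 0.0615 to 0.288).

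Lysosomes digest what phagocytes take up. Of 26 genes of lysosomal hydrolases and membrane proteins 15 rose and 0 fell (median 0.65). Ctsc, a cathepsin, rose by 1.52 in KO and 1.81 in WT, Cd63, a membrane protein of late endosomes, by 1.29 and 1.48, and Npc2, which carries cholesterol out of lysosomes, by 1.13 and 1.14. Ctss, the cathepsin of microglia and macrophages, was at least 2.43-fold and 2.06-fold higher. Genes of lipid uptake, droplets and efflux were divided, with 4 of 14 higher, 1 lower and a median of 0.07. Without each array in turn 2, 3, 2 and 3 rises and 0, 0, 0 and 0 falls were called. Besides Plin2, Gpnmb, a glycoprotein of lipid-laden phagocytes, rose by 1.68 and 2.10. Lpl, lipoprotein lipase, rose by 0.60 and 0.58, and its call was lost without the KO ipsilateral or the WT ipsilateral array (adjusted p = 0.0657 and 0.0544). Apoe, the main apolipoprotein of the brain, fell by 0.42 and 0.39, and its call was lost without any 1 array (adjusted p from 0.0734 to 0.298).

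All 19 interferon-stimulated genes tested rose, with medians of 1.27 in KO and 1.24 in WT, and 13 were at least 2-fold higher in both pairs. A further 7 on the array did not pass the detection filter, which a dim gene could pass through the ipsilateral arrays where it was high. Of the 11 above background on all 4 arrays 11 rose (median 1.32). In place of 19, 16, 18, 18 and 17 were called without each array in turn. Ifitm3, a membrane protein that restricts virus entry, went from 8.92 to 10.82 in KO and from 8.26 to 10.46 in WT, and Ifitm1, of the same family, rose by 1.74 and 1.98. Irgm1, an interferon-induced GTPase, rose by 1.82 and 2.04, and Ifi27l2a was at least 4.1-fold and 3.37-fold higher. Of 16 genes of antigen presentation by MHC class I and II 10 rose (medians 0.90 and 0.85, or 0.78 over the mean difference). Of the 11 above background on all 4 arrays 5 rose (median 0.26). The class II genes H2-Ab1 and H2-Eb1 were above background on the ipsilateral arrays alone. H2-Ab1 was at least 3.75-fold and 2.9-fold higher and H2-Eb1 at least 2.41-fold and 2.08-fold. Cd74, the invariant chain of class II, rose by 1.49 and 2.15, and Psmb8, a subunit of the immunoproteasome, by 1.31 and 1.30.

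Markers of monocytes and macrophages had a higher median difference than those of microglia, which was not tested. The detection filter kept 5 of 10 monocyte and macrophage markers on the array and 12 of 13 microglia markers. A dim gene could pass it through the ipsilateral arrays where it was high, so the filter bears on this contrast. Above background on all 4 arrays were 3 and 11 of them (medians 1.44 and 0.61). All 5 monocyte and macrophage markers tested rose (median 1.44), and 3, 3, 4 and 5 were called without each array in turn. Besides Lyz2 they included Mrc1, the mannose receptor (1.27 and 1.60), Fn1, fibronectin (1.11 and 1.37), and Arg1, arginase, which was at least 6.4-fold and 3.77-fold higher and whose call was lost without the KO ipsilateral, the KO contralateral or the WT ipsilateral array (adjusted p = 0.0686, 0.074 and 0.0704). Their summed intensity was 2237 and 1982.2 ipsilateral and 542.8 and 429.6 contralateral. Ccr2, Ms4a4c, Cd163, Plac8 and Vcan were on the array but did not pass the detection filter, so the receptor of entering monocytes, Ccr2, was not measured.

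Of 12 microglia markers 8 rose and 0 fell (median 0.61), and 6, 7, 5 and 5 were called without each array in turn. Fcrls, specific to microglia in mouse, went from 9.25 to 10.90 in KO and from 9.41 to 11.14 in WT. Olfml3, another microglial gene, rose by 1.14 and 1.62, Tyrobp, a signalling adaptor, by 1.03 and 1.42, and Aif1, of the calcium-binding protein IBA1, by 0.94 and 1.08. Summed over the list, the intensity was 5918.6 and 6659.8 ipsilateral and 3684.8 and 3565.9 contralateral. P2ry12, a receptor of resting microglia, did not pass the detection filter. The part of cell numbers in the rises of phagocyte and antigen presentation genes was not tested.

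Neutrophil markers gave no steady rise. Of 6 tested 3 rose and 1 fell (median 0.68), and 0, 2, 0 and 0 rises were called without each array in turn. Of the 2 above background on all 4 arrays 1 rose and 1 fell (median -0.17). S100a8, an abundant calcium-binding protein of neutrophils, was at 7.53 and 9.10 in KO but at 4.90 and 7.84 in WT (contralateral first), so the KO contralateral level came close to the WT ipsilateral level. Its difference of 2.25 ± 0.69 (limma adjusted p = 0.0451) lost its call without the KO ipsilateral, the WT ipsilateral or the WT contralateral array (adjusted p = 0.235, 0.117 and 0.332). Camp, the cathelicidin gene, fell by 1.32 and 0.34, and its call was lost without the KO ipsilateral or the KO contralateral array (adjusted p = 0.203 and 0.139). Mpo, Elane, Ngp, Ltf, Cxcr2, Mmp8 and Padi4 did not pass the detection filter. Together the 6 genes had an intensity of 969 and 533.2 ipsilateral and 548.9 and 254.2 contralateral.

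Of 13 lymphocyte markers on the array 11 did not pass the detection filter, among them Cd3e, Cd4 and Cd79a. The 2 others, Thy1 and Cd8b1, did not pass the test (-0.21 ± 0.12 and -0.11 ± 0.14, signs that turned with median centring), and Thy1 is also made by neurons. The summed intensity of these 2 genes was 7130.9 and 7564.6 ipsilateral and 8515.9 and 8374 contralateral. Of 3 erythroid genes 0 passed (median 0.10 in KO and 0.69 in WT), and their summed intensity was 22313.5 and 18481.2 ipsilateral and 19626.5 and 12045.4 contralateral. The WT pair thus had the wider gap, and a beta-globin gene outside the list, Hbb-bs, is given below among the bright genes.

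Genes known to rise in reactive astrocytes were mostly higher, and which cells carried them was not tested. Of 23 genes of astrocyte reactivity and intermediate filaments 20 rose (medians 1.51 in KO and 1.64 in WT), and 16 were at least 2-fold higher in both pairs. Of the 13 above background on all 4 arrays 10 rose (median 1.69). Gfap, the intermediate filament of reactive astrocytes, went from 10.84 to 12.12 in KO and from 10.53 to 12.47 in WT (mean 1.61 ± 0.15, limma adjusted p = 0.000117). Tgm1, a protein-crosslinking enzyme, rose by 3.07 and 3.70 and was above background on 3 of 4 arrays. Lcn2, Emp1 and Timp1 belong to the same list. Of 13 general astrocyte markers 2 rose and 2 fell (median 0.11), and 2, 2, 1 and 1 rises and 1, 2, 1 and 1 falls were called without each array in turn. These counts are to be read against the 12.7% of all genes called higher and the 8.06% called lower. Aqp4, the water channel of astrocyte endfeet, rose by 0.71 and 0.88. Slc1a2, the main glutamate transporter, rose by 0.43 and 0.67, and its call was lost without the WT ipsilateral or the WT contralateral array (adjusted p = 0.0934 and 0.0859). Fgfr3, a growth factor receptor, fell by 0.45 and 0.62, and its call was lost without the KO ipsilateral, the WT ipsilateral or the WT contralateral array (adjusted p = 0.167, 0.0811 and 0.173). The other fall, of Hes5, was larger and is given above among the largest falls, with a call that held. Summed over the general markers, intensity was 27072.9 and 27814.5 ipsilateral and 26141.1 and 25878.4 contralateral.

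**Figure D3:**
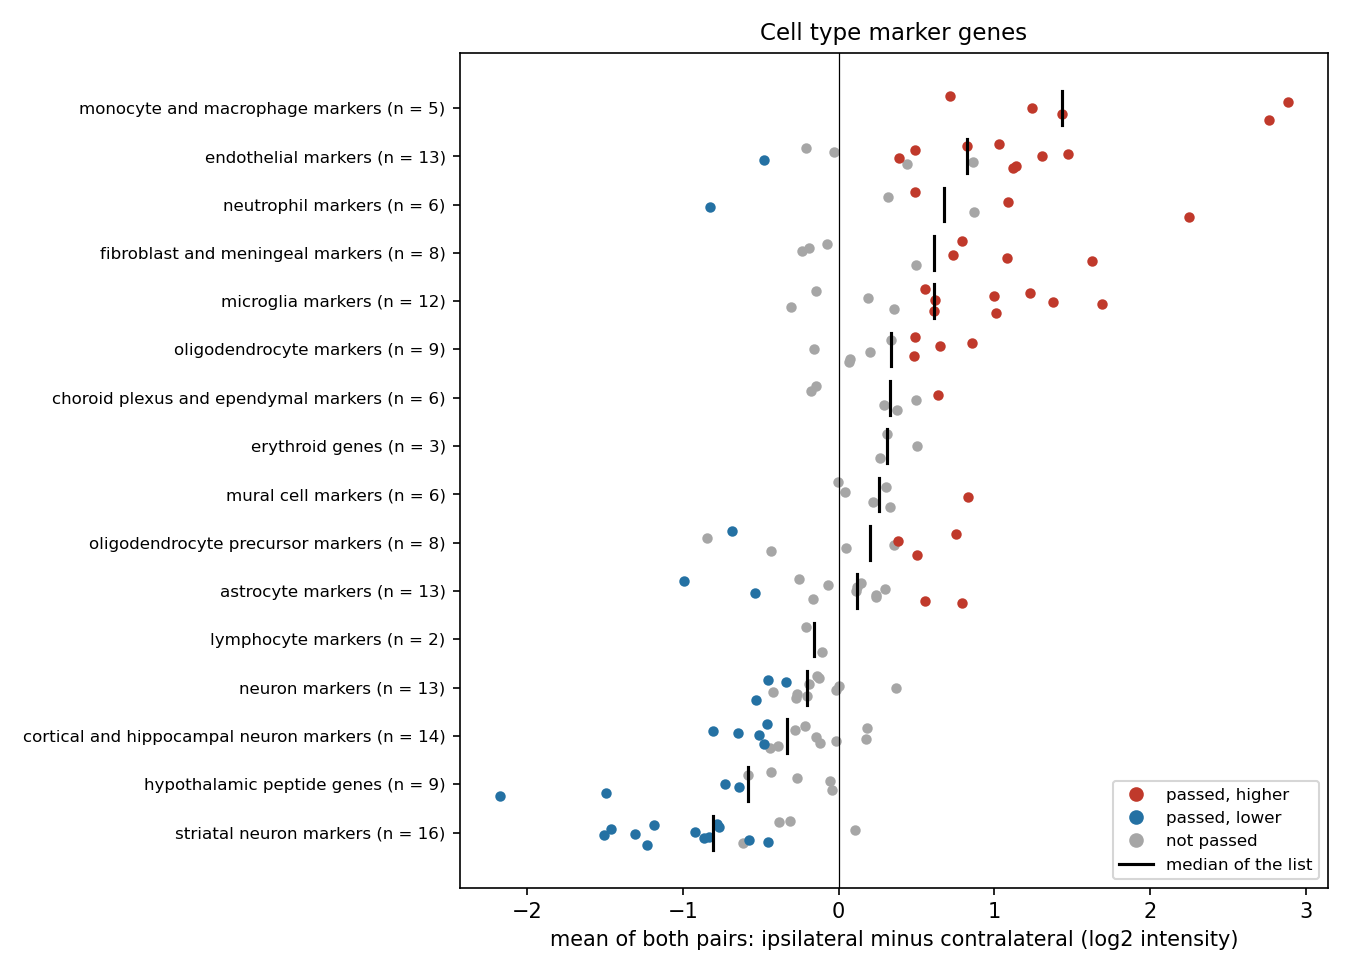
Mean of both pairs' ipsilateral minus contralateral log2 differences for the tested members of 16 cell type marker lists, 1 point per gene, with the list medians marked. Monocyte and macrophage markers lie highest (median 1.44) and striatal neuron markers lowest (median -0.81), while the negative medians of the lymphocyte, neuron and cortical neuron lists turn positive with median centring.

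Endothelial markers were mostly higher, while most mural cell markers did not pass. Of 13 endothelial markers 8 rose and 1 fell (median 0.82), and 5, 5, 4 and 6 rises were called without each array in turn. Of the 12 above background on all 4 arrays 8 rose and 1 fell (median 0.66). Emcn, an endothelial sialomucin, went from 7.79 to 9.43 in KO and from 8.06 to 9.37 in WT. Vwf, von Willebrand factor, rose by 1.20 and 1.41, and Cdh5, VE-cadherin of endothelial junctions, by 1.17 and 1.12. Kdr, the main receptor of VEGF, fell by 0.46 and 0.49, and its call was lost without any 1 array (adjusted p from 0.0742 to 0.133). The summed intensity of the list was 12001.8 and 10998.9 ipsilateral and 8428 and 7392.3 contralateral. Of 6 markers of mural cells, which wrap vessels, 1 rose, a count to be read against the 12.7% of all genes. This was the potassium channel gene Kcnj8 (at least 1.79-fold and 1.76-fold), while Pdgfrb and Rgs5 did not pass (0.33 ± 0.18 and 0.22 ± 0.14).

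Of 14 genes of selectins, integrins and adhesion, which arrest leukocytes at the vessel wall, 10 rose (median 0.60), and 5, 5, 5 and 7 were called without each array in turn. After Selp came Cd44, a hyaluronan receptor (2.52 and 2.42), and Icam1, a ligand of leukocyte integrins (1.46 and 1.56). Of 17 genes of VEGF and angiopoietin signalling 7 rose and 2 fell (median 0.33), and 2, 3, 2 and 2 rises were called. Of the 10 above background on all 4 arrays 4 rose and 2 fell (median 0.22). Angpt2, which loosens vessel walls, was at least 4.76-fold and 3.29-fold higher, and Esm1, of sprouting endothelium, at least 1.88-fold and 2.32-fold.

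Matrix genes rose in part. Of 24 structural matrix genes 13 rose and 2 fell (median 0.73). Besides Lgals3 and Tgfbi the rises were led by Tnc, the wound matrix protein tenascin-C (at least 4.26-fold and 5.41-fold), and Lgals1, galectin-1 (1.89 and 2.62). Both that fell encode proteoglycans of the normal brain matrix. Bcan, brevican, fell by 0.94 and 0.64, and its call was lost without the KO ipsilateral array (adjusted p = 0.0566). Acan, aggrecan, fell by 0.42 and 0.44, a direction that turned with median centring, and its call was lost without any 1 array (adjusted p from 0.108 to 0.185). Of 18 matrix proteases and inhibitors 9 rose (median 0.56), and 6, 6, 7 and 7 were called without each array in turn. Of the 13 above background on all 4 arrays 5 rose (median 0.35). Mmp3, stromelysin, was at least 5.33-fold and 4.25-fold higher, and Plaur, the urokinase receptor, at least 3.63-fold and 3.39-fold.

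Fibroblasts and meninges supply part of the matrix. Of 8 of their markers 4 rose (median 0.61), and 3, 3, 2 and 2 were called without each array in turn. Of the 5 above background on all 4 arrays 2 rose (median -0.08). Dcn, the proteoglycan decorin, went from 9.25 to 10.60 in KO and from 8.75 to 10.66 in WT. Col1a2, Col3a1 and Ogn did not pass the detection filter. Intensity summed over the list was 14208.8 and 15488.7 ipsilateral and 14968 and 14096.4 contralateral, with sides that overlap.

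Of 19 genes of TGF-beta signalling, a driver of scar formation, 8 rose (median 0.44), and 4, 4, 5 and 4 were called without each array in turn. Of the 15 above background on all 4 arrays 5 rose (median 0.28). Tgfb1, the ligand, was at least 2.03-fold and 2.54-fold higher. Tgfbr2, its receptor, rose by 1.16 and 1.20, and Eng, an endothelial co-receptor, by 0.93 and 1.13. Of 21 growth factor and neurotrophin genes 7 rose and 2 fell (median 0.35), and 4, 5, 5 and 7 rises were called. Of the 15 above background on all 4 arrays 3 rose and 2 fell (median 0.07). Besides Igfbp3 they included Igfbp7, of the same family (1.80 and 1.58), and Hbegf, a ligand of the EGF receptor (at least 1.99-fold and 2.19-fold). Ntrk2, the receptor of BDNF, fell by 0.55 and 0.73, and its call was lost without the KO ipsilateral, the WT ipsilateral or the WT contralateral array (adjusted p = 0.169, 0.107 and 0.188).

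Genes of dividing cells were higher. Of 26 genes of replication and mitosis 22 rose and 0 fell, with medians of 1.09 in KO and 1.26 in WT, and 21, 20, 19 and 18 were called without each array in turn. Uhrf1, which maintains DNA methylation at replication, went from 5.79 to 7.82 in KO and from 5.53 to 7.84 in WT. Prc1, of the spindle midzone, rose by 1.64 and 2.30. Cdk1, the mitotic kinase, was at least 2.83-fold and 3.13-fold higher, and Tk1, thymidine kinase, at least 2.43-fold and 2.55-fold. Of the 26 genes 11 were above background on both ipsilateral arrays alone, and over the 11 above it on all 4 arrays the median was 0.76.

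Of the cytoskeletal genes called, most were higher. Of 26 actin cytoskeleton genes 13 rose and 1 fell (median 0.49), and 10, 9, 8 and 11 rises were called without each array in turn. Capg, an actin-capping protein of macrophages, rose by 1.96 and 2.46, Msn, the membrane linker moesin, by 1.93 and 1.86, and the tropomyosin genes Tpm4 and Tpm3 by 1.81 and 1.76 and by 1.33 and 1.36. Actn2, an actinin of dendritic spines, fell by 0.90 and 0.66. Of 14 tubulin genes 3 rose and 2 fell, and the median of -0.18 became 0.20 with median centring. Without each array in turn 3, 3, 2 and 3 tubulin rises and 0, 0, 0 and 0 falls were called. Tubb6 and Tuba1c led the rises, while Tubb3, the neuronal beta-tubulin, did not pass (-0.42 ± 0.14, a sign that turned with median centring). Of 13 annexin and S100 genes 8 rose (median 0.66), and 3, 7, 5 and 5 were called. Anxa2, a membrane-binding annexin, rose by 1.87 and 2.17, its partner S100a10 by 1.11 and 1.23, and S100a6, a calcium-binding protein, by 1.5 and 1.95.

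Stress genes rose in moderate numbers. Of 18 genes of haem, iron and NRF2, a factor of the oxidative stress response, 8 rose (median 0.41), and 5, 5, 5 and 6 were called without each array in turn. After Hmox1 and Lcn2 came Trf, the iron carrier transferrin, which went from 11.10 to 12.27 in KO and from 10.44 to 12.34 in WT, and Slc11a1, a metal transporter of phagosomes (1.02 and 0.98). Of 13 heat shock and metallothionein genes 7 rose (median 0.45), and 4, 3, 2 and 5 were called. Hspb1, a small heat shock protein, rose by 2.28 and 1.42, and its call was lost without the KO ipsilateral, the KO contralateral or the WT ipsilateral array (adjusted p = 0.0511, 0.0571 and 0.053). Hspb8 and its partner Bag3 rose by 0.78 and 0.96 and by 0.76 and 0.97 and kept their calls.

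Protein folding and cell death genes were less steady. Of 17 genes of folding in the endoplasmic reticulum 9 rose (median 0.38), and 1, 1, 1 and 1 were called without each array in turn. P4hb, a disulfide isomerase, rose by 0.58 and 0.78, and its call was lost without the WT ipsilateral array (adjusted p = 0.0508). Of 18 cell death and survival genes 7 rose and 1 fell (median 0.25), and 3, 4, 4 and 6 rises were called. After Bcl2a1b came Casp8, an initiator caspase (at least 2.69-fold and 2.61-fold), and Fadd, its adaptor (0.89 and 0.71).

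Energy metabolism moved little relative to the bulk of genes. With median centring 15 of 34 oxidative phosphorylation and 7 of 17 glycolysis genes were called higher (medians 0.38 and 0.39). So were 25 of 29 ribosomal protein and 15 of 20 cholesterol synthesis genes (medians 0.68 and 0.66). The median of all genes was then 0.43. Counts below are with quantile normalization and are to be read against the 12.7% of all genes called higher. Of 34 oxidative phosphorylation genes 4 rose, a share near the 12.7% of all genes (medians -0.01 in KO and 0.00 in WT), and 0, 0, 3 and 0 were called without each array in turn. Of 17 glycolysis genes 4 rose (median 0.02), and 2, 2, 2 and 2 were called. The hexokinase genes Hk2 and Hk3, which start glycolysis, rose by 1.07 and 0.86 and by 1.40 and 0.89 and kept their calls. Of 29 cytosolic ribosomal protein genes 5 rose (median 0.24), and 0, 4, 0 and 1 were called. Of 20 cholesterol synthesis genes 5 rose (median 0.21), and 0, 2, 2 and 0 were called. Msmo1, a sterol oxidase, rose by 0.89 and 0.78, and its call was lost without the KO ipsilateral or the WT contralateral array (adjusted p = 0.0796 and 0.054).

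**Figure D4:**
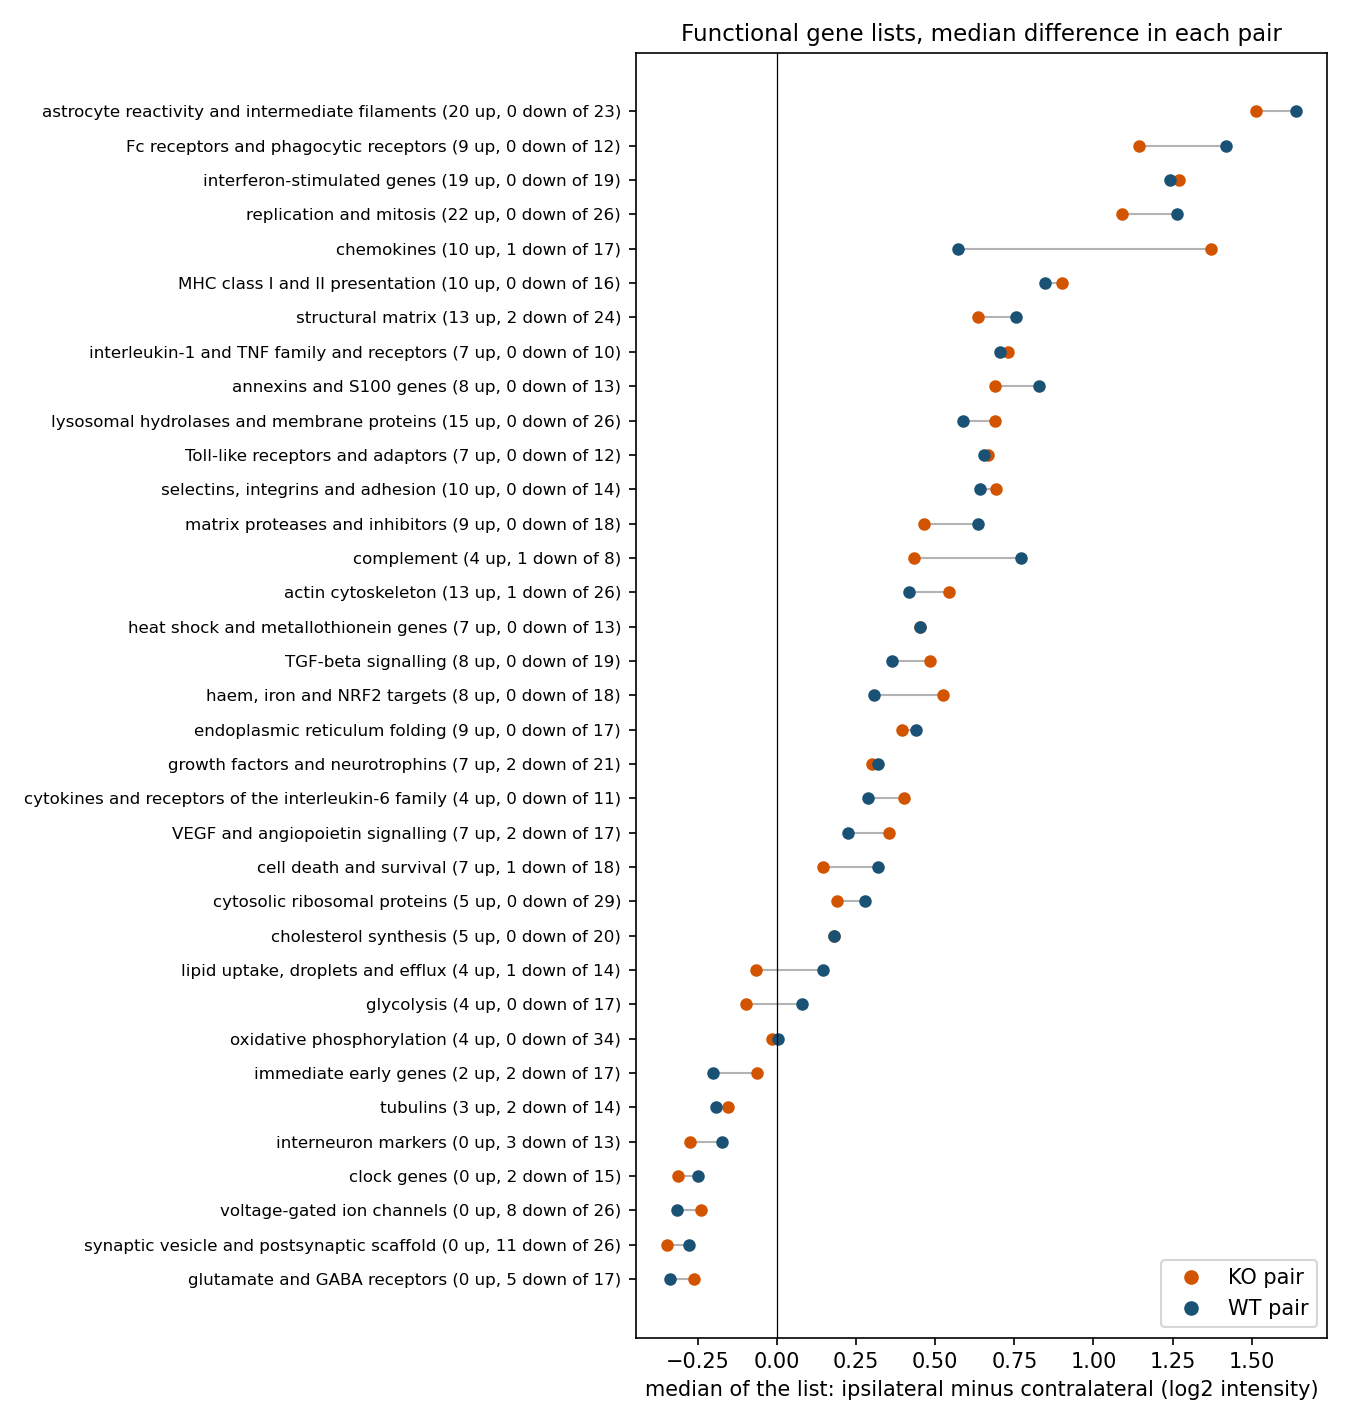
Median ipsilateral minus contralateral log2 difference of 35 functional gene lists in the KO pair and the WT pair, with the numbers of members tested and called. Astrocyte reactivity lies highest (1.51 and 1.64), and lists of synapse, channel, receptor, interneuron, tubulin, immediate early and clock genes lie below 0 in both pairs. With median centring these medians turn positive, except that of the synapse list in the KO pair (-0.0054).

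Oligodendrocytes make myelin. Of 9 oligodendrocyte markers 4 rose and 0 fell (median 0.33), and 2, 2, 2 and 2 were called without each array in turn. Cldn11, the tight junction protein of myelin, went from 12.47 to 13.11 in KO and from 12.51 to 13.18 in WT (mean 0.65 ± 0.11, limma adjusted p = 0.00301), and Opalin, a myelin membrane protein, rose by 0.87 and 0.84. The summed intensity of the list was 36112 and 35348.3 ipsilateral and 30435.4 and 28174.5 contralateral. Of 8 precursor markers 3 rose and 1 fell (median 0.20), 1, 2, 1 and 1 rises were called, and their summed intensity was 13787.5 and 12807.1 ipsilateral and 11168.7 and 9919.9 contralateral. Bcas1, of oligodendrocytes that begin to myelinate, rose by 0.65 and 0.86. Of 6 markers of the choroid plexus and ependyma, which line the ventricles, 1 rose (median 0.33), and 0, 1, 0 and 0 were called. Of the 4 above background on all 4 arrays 0 rose (median 0.07). The 1 rise is to be read against the 12.7% of all genes called higher. Ttr, transthyretin of the choroid plexus, did not pass (0.37 ± 0.12), Kcne2, Slc4a5, Foxj1 and Tmem212 did not pass the detection filter, and the summed intensity was 7326.6 and 7839.7 ipsilateral and 5530.7 and 6468.3 contralateral.

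Genes of striatal projection neurons, which lie in the core of the territory of the artery, fell. Of 16 tested 12 fell and 0 rose, 5 were at least 2-fold lower in both pairs, and the median was -1.01 in KO and -0.62 in WT. With median centring the median of the mean difference was -0.34 in place of -0.81, with 7 called lower. Without each array in turn 7, 9, 11 and 9 falls were called. Besides Rgs9, Ppp1r1b, Syndig1l and Gpr6 the falls included Ido1, a tryptophan-degrading enzyme. Ido1 went from 7.0 to 5.22 in KO and from 7.02 to 5.87 in WT (limma adjusted p = 0.000587). It was above background on 3 of 4 arrays. The summed intensity of the list was 3892.6 and 5317.7 ipsilateral and 7966.9 and 8675.8 contralateral.

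Other neuronal lists fell in fewer members, and their counts are to be read against the 8.06% of all genes called lower. Of 14 cortical and hippocampal markers 5 fell (median -0.33, or 0.14 with median centring, which called 0 lower and 3 higher), and 0, 4, 1 and 0 were called without each array in turn. Lamp5, a membrane protein of cortical neurons, fell by 0.70 and 0.59, and its call was lost without the KO ipsilateral or the WT contralateral array (adjusted p = 0.0946 and 0.0557). Of 13 general neuron markers 3 fell (median -0.20, or 0.17 with median centring, which called 0 lower and 2 higher), and 0, 1, 0 and 0 were called. Rbfox3, of the nuclear protein NeuN, went from 12.54 to 12.14 in KO and from 12.72 to 12.05 in WT (limma adjusted p = 0.0158), and its call was lost without the KO ipsilateral, the WT ipsilateral or the WT contralateral array (adjusted p = 0.0901, 0.108 and 0.142). The summed intensity was 54765.6 and 57506.3 ipsilateral and 64629.1 and 69851.2 contralateral for the general markers and 11005.8 and 12132.5 ipsilateral and 14792.8 and 15756.8 contralateral for the cortical and hippocampal ones.

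Of 9 hypothalamic peptide genes 4 fell, Oxt and Avp among them, against 8.06% of all genes. Their median was -0.58, or -0.09 with median centring, which called 2 lower and 1 higher. Without each array in turn 0, 1, 3 and 2 falls were called. Trh, of thyrotropin-releasing hormone, fell by 1.03 and 0.43, and its call was lost without the KO ipsilateral or the KO contralateral array (adjusted p = 0.207 and 0.145). Without the detection filter 0 of the list were called. Pomc, Pmch, Crh, Ghrh and Kiss1 did not pass that filter. The summed intensity was 5593.1 and 5626.5 ipsilateral and 7116.9 and 7331.2 contralateral. How much hypothalamus each tissue sample held is not given.

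Genes of synapses and excitability fell in part, with counts to be read against the 8.06% of all genes called lower. Of 26 genes of synaptic vesicles and postsynaptic scaffold 11 fell (median -0.32, or 0.05 with median centring, which called 0 lower and 0 higher), and 1, 4, 4 and 3 were called without each array in turn. Dlg4, the scaffold protein PSD-95, went from 9.31 to 8.52 in KO and from 9.34 to 8.72 in WT and kept its call. Cplx2, a complexin of the release machinery, fell by 0.79 and 0.73, and its call was lost without the KO ipsilateral array (adjusted p = 0.0519). Of 17 glutamate and GABA receptor genes 5 fell (median -0.32, or 0.18 with median centring, which called 0 lower and 3 higher), and 1, 3, 5 and 5 were called. Grin2c, an NMDA receptor subunit, fell by 0.66 and 0.63 and kept its call. Gabrd, a GABA-A receptor subunit, fell by 1.16 and 0.69, and its call was lost without the KO ipsilateral array (adjusted p = 0.0512).

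Counts of ion channel and interneuron genes are also to be read against the 8.06% of all genes called lower. Of 26 voltage-gated ion channel genes 8 fell (median -0.30, or 0.13 with median centring, which called 0 lower and 6 higher). Without each array in turn 2, 3, 1 and 3 falls were called. Kcnh3, a potassium channel of forebrain neurons, fell by 0.88 and 0.66 and kept its call. Scn8a, a sodium channel of axons, fell by 0.50 and 0.72, and its call was lost without the WT ipsilateral or the WT contralateral array (adjusted p = 0.0584 and 0.0532). Of 13 interneuron markers 3 fell (median -0.27, or 0.18 with median centring, which called 0 lower and 3 higher), and 0, 1, 2 and 2 falls and 0, 1, 0 and 0 rises were called. Tac1, the precursor of substance P, which striatal neurons also make, fell by 1.09 and 0.57, and its call was lost without the KO ipsilateral array (adjusted p = 0.0708).

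Immediate early genes, which respond to activity and stress, did not move together. Of 17 tested 2 rose and 2 fell, each a share near that of all genes (12.7% and 8.06%), and the median of -0.12 became 0.30 with median centring. Without each array in turn 1, 1, 1 and 4 rises and 1, 2, 0 and 0 falls were called. Fos, a subunit of AP-1, was at 6.72 and 8.75 in KO and at 8.31 and 9.18 in WT (contralateral first). It rose by 2.02 in KO and 0.87 in WT (limma adjusted p = 0.0226), and its call was lost without the KO ipsilateral, the KO contralateral or the WT ipsilateral array (adjusted p = 0.121, 0.124 and 0.104). Ier3, a survival gene, rose by 1.07 and 0.84 and kept its call. Nr4a2, a nuclear receptor gene, fell by 0.59 and 1.02, and its call was lost without the KO ipsilateral, the WT ipsilateral or the WT contralateral array (adjusted p = 0.0813, 0.056 and 0.0847). Jun, the partner of Fos, fell by 0.36 and 0.67, and its call was lost without the KO contralateral, the WT ipsilateral or the WT contralateral array (adjusted p = 0.0755, 0.189 and 0.113). Of 15 clock genes 2 fell, a count to be read against the 8.06% of all genes called lower (median -0.29, or 0.19 with median centring), and 0, 2, 3 and 1 were called without each array in turn. The 2 were Nr1d2 and its paralog Nr1d1, which fell by 0.71 and 0.56 and lost its call without the KO ipsilateral array (adjusted p = 0.0864). The hour of tissue sampling is not given.

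Among the 100 brightest genes the differences were small. Actb, beta-actin, often taken as a constant reference, went from 12.80 to 13.33 in KO and from 12.79 to 13.20 in WT, and its call was lost without the KO ipsilateral, the KO contralateral or the WT ipsilateral array (adjusted p = 0.124, 0.167 and 0.154). Hbb-bs, a beta-globin gene with near-identical copies that a probe may not separate, rose by 0.43 and 0.82, and its call was lost without the KO ipsilateral, the WT ipsilateral or the WT contralateral array (adjusted p = 0.068, 0.11 and 0.134). Syt1, the calcium sensor of transmitter release, fell by 0.25 and 0.43, and its call was lost without any 1 array (adjusted p from 0.107 to 0.272). Cldn11, named above, was the bright gene whose rise held without any 1 array.

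The KO and WT differences were also set against each other. The term for the KO difference minus the WT difference passed for 0 genes (0%, limma, smallest adjusted p = 1), with 105 genes at an unadjusted p under 0.05, and for 0 genes under each of the 8 alternatives in which it was estimated. With 3 residual degrees of freedom and 1 array a group, this does not show that the pairs were alike. No gene was at least 2-fold different in opposite directions. Spint1, an inhibitor of serine proteases, was the 1 gene with opposite signs and at least 0.5 on the log2 scale in each pair. It went from 7.41 to 6.76 in KO and from 7.75 to 8.46 in WT, and the difference between its pairs did not pass (adjusted p = 1). For Cd93 the KO difference minus the WT difference was -1.44, which did not pass either (adjusted p = 1).

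Other probes of a gene gave a check within the arrays. Of the called genes 437 had another detected probe, and of these 566 probes 458 had the same sign, 198 passed in the same direction and 7 passed in the opposite one. For Snap91, a clathrin assembly protein of synapses, 1 probe was lower (-0.85 ± 0.25) and another higher (0.52 ± 0.13). For Rbl1, of the retinoblastoma family, the brighter probe was lower (-0.41 ± 0.12, a sign that turned with median centring) and the other higher (1.02 ± 0.12). Tcp1, a chaperonin subunit, had 1 probe called lower (-0.94 ± 0.20) and 1 called higher (0.46 ± 0.14), and so had Eme1, of a DNA repair nuclease (-1.67 ± 0.27 and 0.46 ± 0.13). No direction is given for these 4 genes. A second probe of Cd93, above background on 2 of the 4 arrays, was higher in both pairs (mean 0.98 ± 0.25).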

How the data were processed

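RNA of mouse brain tissue was measured on 10 Illumina Mouse-6 bead arrays, each the only array of its genotype and condition. Per the file headers, the deposited non-normalized table holds an intensity and a detection p-value for each probe and array. The deposited detection p-value rises with intensity, and 1 minus this value was used. The authors' own value table holds normalized intensity. Its sorted values were equal within 1% at 99.98 to 99.99% of ranks within 5 pairs of arrays, and at most at 56.1% between pairs. It served as an alternative with 2 limits. Gaps of scale between its pairs can enter the residuals of the model over 10 arrays. The hemispheres of a pair still share 1 distribution in it, as with quantile normalization. The software of the authors is not given in the sources used here.

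Intensities were background-corrected (nec, offset 16), quantile-normalized over the 10 arrays and put on the log2 scale with limma 3.58.1 in R 4.3.3. Of 46373 probes 29800 have 1 gene, 10 several and 16563 none, and 29758 matched RefSeq (GRCm38.p6). Kept were 16067 probes, of which 12571 are named, whose detection p was below 0.01 on 2 or more arrays, and the brightest stood for each of 9351 genes. An additive limma model had 5 conditions and genotype as the block that pairs the hemispheres (4 residual degrees of freedom). A second added the KO minus WT difference of the pairs (3 residual degrees of freedom). P-values were adjusted by Benjamini-Hochberg at 0.05. The code was tested on simulated data.

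Named genes, with predicted transcripts skipped, are the 12 largest rises and falls among called genes detected on all 4 arrays, the largest lower bounds, up to 4 members of each list and up to 2 that passed the other way, bright genes, genes with opposite pairs or opposite probes, and Cd93, Gfap, Il1b, Il6 and Tnf. A few of them are left out of the text. Members, lists and motifs were chosen with earlier results of these data known. Alternatives changed background, normalization, filter, probe choice, arrays in the fit, genotype term and variance prior.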

Additional observations from a re-analysis of the deposited data

Results flagged for a closer look

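Results whose KO and WT pairs moved in opposite directions are given here as values. None was shown to differ between the pairs, since no gene passed the test of that difference (limma adjusted p = 1 for the 3 genes below).

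Spint1, an inhibitor of serine proteases, differed by -0.65 in the KO pair and 0.70 in the WT pair. Alas2, the haem synthesis enzyme of red cells, differed by -0.073 in the KO pair and 0.69 in the WT pair. Pop4, a subunit of the RNA-processing enzyme RNase P, had the widest gap between pairs of opposite sign and was chosen after its values were seen. It differed by -0.26 in the KO pair and 4.18 in the WT pair, because its signal was 9.01, 9.27 and 9.22 on the KO ipsilateral, KO contralateral and WT ipsilateral arrays but 5.04 on the WT contralateral array. Over all 10 arrays Pop4 was above background on 7, and its level was near 9 or near 5: 9.36 and 9.14 in untreated KO and WT tissue, and 4.81, 9.24, 9.33 and 4.55 on the KO ipsilateral, KO contralateral, WT ipsilateral and WT contralateral arrays of the protocol with 30 min of occlusion and 72 h of reperfusion. The low arrays were of both genotypes and both hemispheres.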

How the results depend on the processing

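The 1939 calls became 4923 with median centring, 3304 with quantile normalization of the 4 arrays alone, 3271 with the 4 arrays alone and genotype as a block, and 1267 in the authors' value table. The fits of 4 arrays have 1 residual degree of freedom. With 1 array left out there were 585 to 1016 calls. Without the genotype block that pairs the hemispheres there were 1321. The 255 genes at least 2-fold higher in both pairs became 151 without background correction, 143 with an offset of 50, 651 with median centring, 166 in the authors' value table and 111 with detection on all 10 arrays. The 9 lower became 3 without background correction, 3 with an offset of 50, 1 with median centring, 3 in the authors' table and 15 with every probe kept. The count of 0 for the difference between pairs was the same under the 8 alternatives run. It could not be estimated with the 4 arrays alone, without the genotype term or with an array left out.

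With median centring the sign turned for Rbl1 (0.067), Thy1 (0.15), Cd8b1 (0.38), Tubb3 (0.032), Syn1 (0.12), Nrgn (0.0022), C2 (0.050), Tubg1 (0.071), Tubg2 (0.020), Tubb4a (0.16), Acan (0.064), Flt4 (0.079), Kcnab1 (0.044), Kcnk2 (0.036), Reln (0.15), Homer1 (0.19), Ciart (0.13) and Egf (0.033). It also turned when arrays were left out for Spint1 (from -0.56 to 0.62), Cd8b1 (from -0.29 to 0.076), Kl (from -0.011 to 0.60), Alas2 (from -0.13 to 0.75) and Egr4 (from -1.12 to 0.033), for Tgif1 without the detection filter (-0.18), and for Pdia6 (-0.064) and Lss (-0.49) with detection on all 10 arrays. For Tgif1, Pdia6 and Lss another probe stood for the gene, since these filters change only which probes are kept. With detection on all 10 arrays, 1 of the 2 genes with a turned sign passed in the opposite direction. The causes of the other turns were not tested. Of the named genes 83, 54, 68 and 70 lost their call without each array in turn, 46 with median centring (10 of them with the sign turned) and 36 without the genotype block. Genes near background have compressed differences, and 1 array a group limits every value.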
